A study of Mus musculus with 2 samples.

Results

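The 36 genes described here make up the machinery by which a mouse cell builds cholesterol and fatty acids, together with the sterol regulatory element-binding protein (SREBP) system that sets its rate. They were taken by gene symbol from an annotation of 55536 genes, of which 22015 are nuclear and protein-coding, and fall into 3 arms: 19 enzymes of the sterol pathway, 8 SREBP genes and regulators, and 9 enzymes of fatty acid synthesis and desaturation. The members were chosen by their levels, replicate ratios and retained-intron shares in these libraries, so those values are a description of the 2 libraries and carry no test.

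RNA bound to chromatin was isolated from bone marrow-derived macrophages of C57BL/6J mice, which are primary cells grown out of marrow precursors. The 2 libraries form 1 group, the 0-minute time of a lipid A series. Lipid A, given at 100 ng/ml in that series, is the part of endotoxin that Toll-like receptor 4 senses. These cells had no time under it, and there is no treated group to compare. Ribosomal RNA was depleted, and replicates 1 and 2 started from 250 ng and 500 ng of RNA, with fragments of 250 to 400 bases. Sex and age were not collected. The labels call the libraries biological replicates but give both the same donor entry, so the spread between them may be technical, and replicate and RNA input cannot be told apart. The gene tables held 10970767 and 14207280 expected counts, which are estimated reads per gene. All 7 macrophage markers were detected (Lyz2, Csf1r and Mertk were the highest, at 176, 173 and 125 TPM, a transcript abundance per unit length), while 1 of 24 markers of T cells, B cells, neutrophils, dendritic cells, stroma, adipocytes and hepatocytes was (Zbtb46, 1.57 TPM). The 24 summed to 3.98 TPM in replicate 1 and 3.17 TPM in replicate 2, and 12 had no count in either. These values are from the gene tables. In the second transcript table, described further on, Cd3d, Cd8a, Zbtb46, Siglech and Col1a1 had means of 9.57, 2.83, 2.47, 2.09 and 1.38 TPM. The rest of the 24 stayed below 1 TPM there.

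Cholesterol is made from acetyl-CoA through mevalonate, isoprenoid diphosphates, squalene and lanosterol, and fatty acids from the same acetyl-CoA through malonyl-CoA. When membranes are poor in sterol, the escort protein SCAP carries SREBP precursors from the endoplasmic reticulum to the Golgi, where a pair of proteases release the transcription factor domain. When sterol is plentiful, INSIG proteins hold SCAP back. SREBP-2 acts mainly on sterol genes and SREBP-1c mainly on fatty acid genes, usually beside the factors NF-Y and Sp1, and macrophages both make cholesterol and take it up from the particles and cells they engulf. Chromatin-bound RNA is largely nascent, so the values below describe RNA still at or near its gene rather than the cell's pool of mature mRNA.

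Promoter sequence was not among the values that chose the members, and it is shown first because the arms differ in it. RefSeq start sites on GRCm38.p6, the mm10 build, were matched for 29 of the 36 genes (Fads1, Fdft1, Fdps, Scd1, Scd2, Sqle and Stard4 were not), and the 250 bases before each start were searched on both strands for 4 motifs. The arms differed most in the NF-Y box. CCAAT lay in a window of 15 of 16 sterol arm genes (93.8%), 4 of 7 SREBP regulators (57.1%) and 2 of 6 fatty acid genes (33.3%), against 40.6% of the 8189 detected protein-coding genes with a window and 37.5% of all 27025 genes. Acat2 was the sterol gene without it. The Acaca window (chr11:84195188-84195437), counted as without the box, lies inside the gene, which starts at 84129672. Its G and C content was 39.2%. Whether it is a promoter is uncertain, and so are the fatty acid counts that include it. Some genes have several starts: with 1 window per gene, nearest the start of its main coding transcript, the counts were 14 of 16 (Pmvk and Acat2 without), 2 of 7 and 2 of 6. The nearest window could still lie far from that start, by 10277 bases for Lss, 2519 for Msmo1 and 588 for Dhcr7. Both background shares above count a gene if any of its windows holds the box. None was computed with 1 window per gene. The windows used here for Pmvk, Hsd17b7, Mvk, Dhcr7, Idi1, Tm7sf2, Nsdhl and Insig2 begin within an annotated exon of that or another gene. All of these but Pmvk and Insig2 hold the box. The Sp1 box GGGCGG, common in promoters at large, lay before 14 of 16 sterol genes (87.5%), 6 of 7 regulators (85.7%) and 3 of 6 fatty acid genes (50%), against 64.2% of detected genes. The E-box CACGTG lay before 3 of 16, 2 of 7 and 0 of 6, against 10.3%. The sterol regulatory element spelled TCACNCCAC lay before Hmgcs1 alone among the 29, against 1.22%. A match describes letters in this window and is no measure of binding, and ATTGG, the reverse complement of CCAAT, can share its last letters with GGGCGG.

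Below are 5 windows that overlap no annotated exon, 5′ to 3′ on the gene's own strand, with CCAAT (or ATTGG) and the sterol regulatory element in capitals. The first 3 are sterol genes and the other 2 are genes without the box, Acly of the fatty acid arm and Mbtps1 of the regulators. Their mm10 positions are chr13:119690101-119690350 on the plus strand for Hmgcs1 and, on the minus strand, chr8:122443423-122443672 for Mvd, chr9:42264301-42264550 for Sc5d, chr11:100528001-100528250 for Acly and chr8:119558762-119559011 for Mbtps1.
Hmgcs1: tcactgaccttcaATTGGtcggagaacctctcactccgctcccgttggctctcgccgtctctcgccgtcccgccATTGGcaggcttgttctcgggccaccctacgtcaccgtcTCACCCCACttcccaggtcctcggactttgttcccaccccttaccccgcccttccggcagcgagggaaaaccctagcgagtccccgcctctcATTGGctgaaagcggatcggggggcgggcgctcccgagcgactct
Mvd: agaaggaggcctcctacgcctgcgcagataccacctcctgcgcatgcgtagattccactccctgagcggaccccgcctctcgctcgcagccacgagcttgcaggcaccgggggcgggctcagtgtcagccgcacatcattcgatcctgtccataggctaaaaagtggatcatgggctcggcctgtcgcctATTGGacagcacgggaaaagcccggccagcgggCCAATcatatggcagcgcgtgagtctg
Sc5d: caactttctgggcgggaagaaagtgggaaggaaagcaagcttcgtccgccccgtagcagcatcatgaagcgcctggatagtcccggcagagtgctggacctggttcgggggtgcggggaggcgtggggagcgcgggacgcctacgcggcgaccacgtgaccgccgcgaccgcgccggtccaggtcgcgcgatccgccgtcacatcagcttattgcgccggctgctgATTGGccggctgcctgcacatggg
Acly: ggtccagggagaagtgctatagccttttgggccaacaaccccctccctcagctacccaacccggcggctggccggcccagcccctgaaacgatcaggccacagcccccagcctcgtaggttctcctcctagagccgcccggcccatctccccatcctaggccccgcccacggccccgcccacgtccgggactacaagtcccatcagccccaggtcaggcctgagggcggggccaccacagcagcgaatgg
Mbtps1: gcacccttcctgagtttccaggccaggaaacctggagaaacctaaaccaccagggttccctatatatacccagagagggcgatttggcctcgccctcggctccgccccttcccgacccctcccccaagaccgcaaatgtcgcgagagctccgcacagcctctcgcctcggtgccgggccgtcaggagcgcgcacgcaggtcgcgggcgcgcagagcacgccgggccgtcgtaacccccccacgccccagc
In the Hmgcs1 window the sterol regulatory element starts 137 bases before the RefSeq start and the 3 NF-Y boxes 237, 176 and 45 bases before it. Mvd holds 2 boxes, 60 and 27 bases before the start, and Sc5d 1, 24 bases before it. G and C made up 64.8%, 62.8% and 67.6% of the Hmgcs1, Mvd and Sc5d windows and 68.8% and 68% of those of Acly and Mbtps1.

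Levels are given as TPM, which allows genes to be compared within a library, and each mean carries the SD of the 2 replicates. A gene counts as detected here where both replicates reach 1 TPM. Of the 36 genes 33 were detected, against 46.7% of all protein-coding genes, and 15 lay above 11.1 TPM, the median of detected protein-coding genes. The regulators had the highest median level of the 3 arms (20.4 TPM, 18.6 and 20.9 in replicates 1 and 2), the fatty acid arm followed (11.5 TPM, 8.26 and 13.3), and the sterol arm was lowest (5.57 TPM, 4.04 and 7.30). This order was the same in each replicate, but over the members that overlap no other gene the fatty acid arm stood below the sterol arm (1.56 TPM over 3 genes and 4.46 TPM over 10). TPM is scaled within each library, and its median log2 ratio of replicate 2 over replicate 1 was -0.08 over genes with a mean of 50 counts, so a gene's TPM ratio can differ in direction from the ratio of scaled counts given further on. In bulk RNA, fewer cells of a type and less RNA per cell cannot be told apart.

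**Figure D1:**
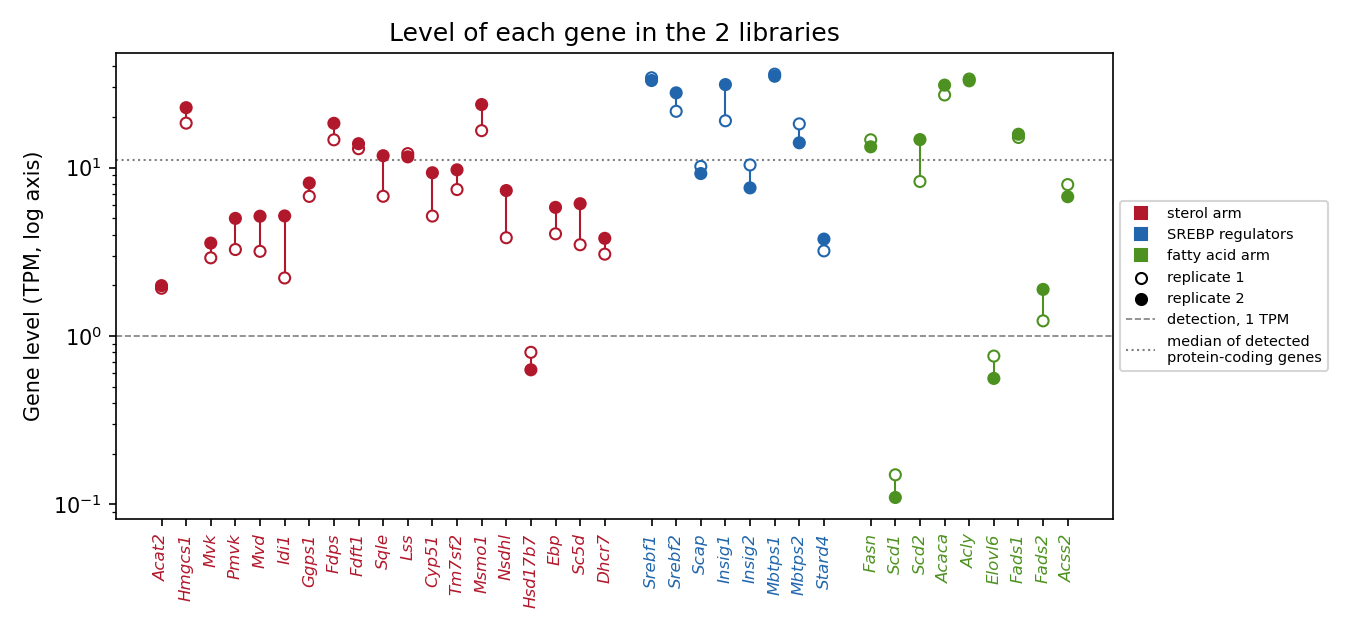
Level of each of the 36 genes in TPM on a log axis, in pathway order, with an open circle for replicate 1 and a filled one for replicate 2. Most sterol arm genes sit below the dotted line at 11.1 TPM, with replicate 2 above replicate 1 in 17 of 19, and Hsd17b7, Scd1 and Elovl6 lie below 1 TPM. The share of all genes with replicate 2 above replicate 1 in TPM was not computed.

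Within the sterol arm, 17 of 19 genes had a higher TPM in replicate 2 than in replicate 1, the exceptions being Lss and Hsd17b7. Hmgcs1, the cytosolic synthase that makes HMG-CoA, was the most abundant at 18.3 and 22.7 TPM (20.5 ± 3.05, SD, n = 2). Msmo1, a C4-methyl sterol oxidase, stood at 16.6 and 23.7 TPM and Fdps, which makes farnesyl diphosphate, at 14.6 and 18.3 TPM. Fdft1 (squalene synthase, 12.9 and 13.9 TPM) and Lss (lanosterol synthase, 12.1 and 11.6 TPM) differed less between replicates by TPM, although Lss was 1.32-fold by scaled counts. These 5 genes were the sterol members above the median of detected genes.

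The other sterol enzymes were lower and mostly less even. Sqle, squalene epoxidase, had 6.75 and 11.8 TPM, Cyp51, the lanosterol demethylase, 5.15 and 9.31 TPM, and Nsdhl, a sterol dehydrogenase of C4 demethylation, 3.83 and 7.30 TPM. All 3 were clearly apart between replicates. Tm7sf2, a C14 sterol reductase, had 7.40 and 9.69 TPM, Ggps1, which makes geranylgeranyl diphosphate for protein prenylation, 6.74 and 8.09 TPM, Ebp, the sterol isomerase, 4.04 and 5.80 TPM, and Sc5d, the C5 desaturase, 3.48 and 6.10 TPM. The mevalonate enzymes that follow HMG-CoA formed a low run: Mvk (mevalonate kinase) 2.91 and 3.56 TPM, Pmvk (phosphomevalonate kinase) 3.26 and 4.99 TPM, Mvd (the decarboxylase) 3.18 and 5.14 TPM, and Idi1 (isopentenyl diphosphate isomerase) 2.21 and 5.16 TPM. Dhcr7, the last reductase of the pathway, had 3.06 and 3.80 TPM and Acat2, the cytosolic thiolase at its start, 1.92 and 1.99 TPM. Hsd17b7, a 3-ketosteroid reductase, was the sterol enzyme not called detected, at 0.80 and 0.63 TPM. Over the arm the enzymes up to the isoprenoid diphosphates had a median of 4.14 TPM (8 genes) and those from squalene synthase onward 7.23 TPM (11 genes).

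Among the regulators, Mbtps1, the site-1 protease that makes the first cut in SREBP, stood at 35.8 and 34.8 TPM, and Srebf1, which encodes SREBP-1, at 34.1 and 32.8 TPM. Insig1, a sterol-sensing anchor of SCAP and itself an SREBP target, had 18.9 and 31.1 TPM and Srebf2, which encodes SREBP-2, 21.6 and 27.8 TPM. The site-2 protease gene Mbtps2 (18.2 and 14.0 TPM), Insig2 (10.4 and 7.57 TPM) and Scap (10.2 and 9.21 TPM) were each lower in replicate 2 by TPM, although Insig2 was 1.09-fold by scaled counts. Insig1 exceeded its paralog Insig2 by 1.83-fold in replicate 1 and 4.10-fold in replicate 2, and the second transcript table put the same ratio at 0.909 and 1.54, so their order depends on the table in replicate 1. Stard4, a cytosolic sterol carrier, was the lowest of the 8 at 3.20 and 3.76 TPM.

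In the fatty acid arm the 2 enzymes that supply and commit carbon were highest. Acly, ATP citrate lyase, had 33.5 and 32.7 TPM and Acaca, acetyl-CoA carboxylase, 27.0 and 30.8 TPM. Fasn, fatty acid synthase, stood at 14.6 and 13.3 TPM, Fads1, the delta-5 desaturase, at 15.1 and 15.8 TPM, and Acss2, which makes acetyl-CoA from acetate, at 7.92 and 6.71 TPM. The stearoyl-CoA desaturase Scd2 was at 8.26 and 14.7 TPM, and its paralog Scd1, the main liver form, at 0.15 and 0.11 TPM from 7.02 and 8.02 counts. Scd2 thus exceeded Scd1 by 55.1-fold and 133-fold (52.3-fold and 127-fold in the second table), and how reads common to the paralogs were shared out is uncertain. Fads2, the delta-6 desaturase, had 1.23 and 1.89 TPM, and Elovl6, which extends palmitate, 0.76 and 0.56 TPM in the gene table but 3.32 and 4.77 TPM in the second table. Scd1 and Elovl6 were the 2 fatty acid genes not called detected, and Elovl6 was above 1 TPM in both replicates of the second table.

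The difference between libraries was measured as a log2 ratio of replicate 2 over replicate 1, on expected counts scaled by TMM (a factor that sets the bulk of genes level) plus 0.5 counts. The sterol arm was higher in replicate 2 than in replicate 1, whereas the other arms lay near even. Of its 16 genes that averaged 50 counts or more, 16 had a log2 ratio above 0, as did 51.7% of all genes, and 11 were at least 1.5-fold higher, while 1.74% of the 10984 genes with as many counts reached that fold upward. In the regulators 1 of 8 genes was at least 1.5-fold higher, and in the fatty acid arm 2 of 7. None of the 31 members measured was 1.5-fold lower, against 1.67% of all genes, which lies near genes at large. The median log2 ratio was 0.69 in the sterol arm (1.61-fold), 0.06 in the regulators and 0.14 in the fatty acid arm, beside 0.01 over all genes, whose central 95% ran from -0.51 to 0.52. Because replicate ratios were among the values that chose the members, the counts say nothing beyond these libraries. The 2 libraries differ in RNA input and there is 1 of each, so the difference has no replicate check.

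**Figure D2:**
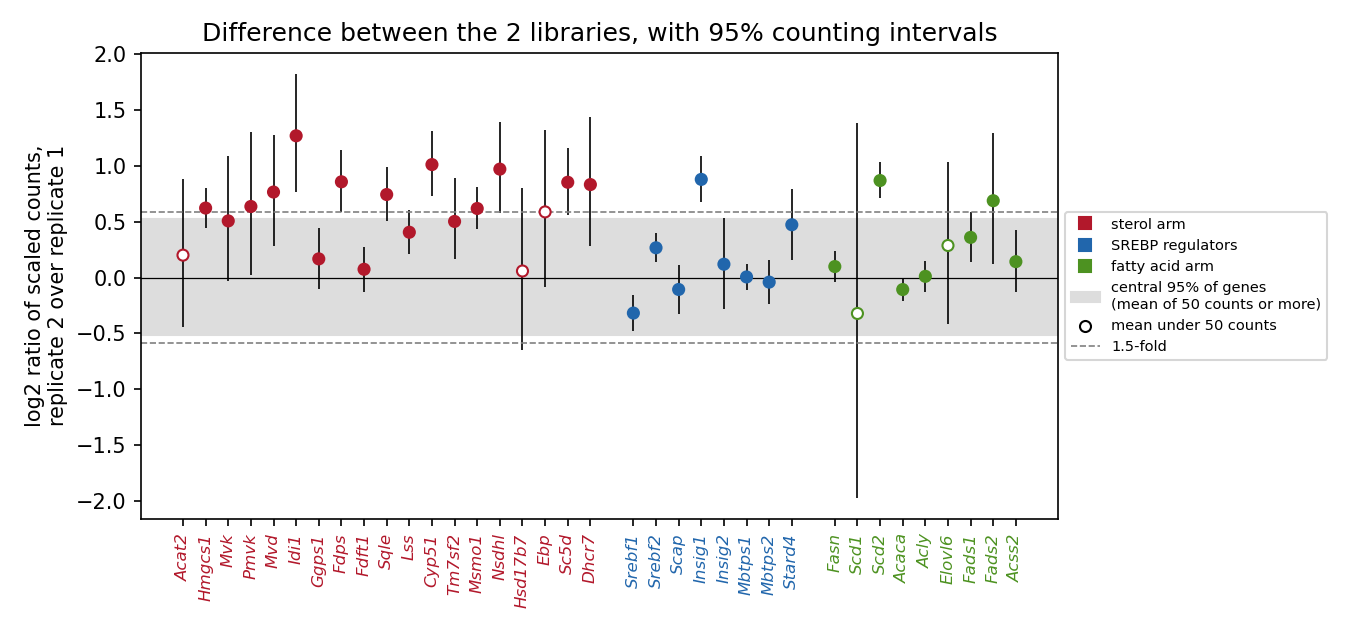
Log2 ratio of replicate 2 over replicate 1 for each gene in pathway order, with 95% counting intervals, over a grey band for the central 95% of all genes with a mean of 50 counts or more. Of the sterol genes 11 lie above the dashed 1.5-fold line, with Insig1, Scd2 and Fads2 from the other arms, and open circles mark genes with a mean under 50 counts.

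The largest ratio belonged to Idi1 (ENSMUSG00000058258.14, chromosome 13, 8885501 to 8892451), with 41 and 140.6 counts, or 2.41-fold (exact binomial interval 1.70 to 3.53, counting error only). Cyp51 (ENSMUSG00000001467.5, chromosome 5, 4081145 to 4104746) had 135 and 386 counts, or 2.01-fold (1.66 to 2.47). Nsdhl had 70 and 195 counts, or 1.96-fold (1.49 to 2.62). Idi1 and Cyp51 were the members that reached 2-fold in the gene table. After them came Fdps (153 and 392.9 counts, 1.81-fold), Sc5d (128 and 328, 1.80-fold), Dhcr7 (37 and 94, 1.78-fold), Mvd (50 and 121, 1.70-fold), Sqle (204 and 484, 1.67-fold) and Pmvk (32 and 71, 1.55-fold). The most deeply counted sterol genes sat near the line: Hmgcs1 went from 372 to 811 counts (1.54-fold, 1.36 to 1.75) and Msmo1 from 350.0 to 761 (1.53-fold, 1.35 to 1.75). Just below the line were Mvk and Tm7sf2, both 1.42-fold. Lss stood at 1.32-fold (1.15 to 1.52), Ggps1 at 1.12-fold (0.932 to 1.36) and Fdft1 at 1.05-fold (0.915 to 1.21). The interval lay above 1 for 13 of the 16, against 15.1% of the 10984 genes, and spanned it for Mvk, Ggps1 and Fdft1. Acat2, Hsd17b7 and Ebp averaged under 50 counts, and the ratios of the 3 (1.15, 1.04 and 1.5) had intervals that spanned 1.

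The ratio was spread along the pathway. Of the 7 measured enzymes up to the isoprenoid diphosphates 5 passed 1.5-fold (median log2 ratio 0.64), and of the 9 from squalene synthase onward 6 did (0.74). Both branch-point enzymes that direct farnesyl diphosphate, Ggps1 toward prenylation and Fdft1 toward squalene, were among the least different. Summed over the 19 genes, counts went from 2641 to 5614, or 1.5-fold after scaling (1.43 to 1.57). The summed fold was 1.08 for the regulators (3518 and 5398 counts, 1.04 to 1.13) and 1.12 for the fatty acid arm (3654 and 5796 counts, 1.07 to 1.17).

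Among the regulators Insig1 (ENSMUSG00000045294.11, chromosome 5, 28071363 to 28078662) stood apart, with 266 and 693 counts, or 1.84-fold (1.59 to 2.13). Stard4 followed at 126 and 248 counts, or 1.39-fold (1.12 to 1.74), and Srebf2 at 772 and 1315 counts, or 1.20-fold (1.10 to 1.32). Srebf1 differed the other way, with 580.0 and 659 counts, or 0.802-fold (0.716 to 0.898). So the 2 SREBP genes had intervals on opposite sides of 1, and both ratios lay within the central 95% of all genes. Mbtps1 (1006 and 1430 counts, 1.00-fold), Mbtps2 (382 and 525.5, 0.972-fold), Scap (301 and 396, 0.929-fold) and Insig2 (85 and 131, 1.09-fold) had intervals that spanned 1.

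In the fatty acid arm the desaturases lay further from even than the enzymes that supply and build the chain. Scd2 (ENSMUSG00000025203.6, chromosome 19, 44293674 to 44306864) had 432 and 1117 counts, or 1.82-fold (1.63 to 2.04), and Fads2 37 and 85 counts, or 1.61-fold (1.09 to 2.46). Fads1, the neighbour of Fads2 at a gap of 81.1 kb on chromosome 19, had 258 and 469 counts, or 1.28-fold (1.10 to 1.5). For the other enzymes, Acly (712 and 1016 counts) was at 1.01-fold, Fasn (705 and 1069) at 1.07-fold, Acss2 (179 and 280.0) at 1.10-fold and Acaca (1297 and 1705) at 0.928-fold. The interval of Acaca, 0.864 to 0.999, ended just below 1, and those of Acly, Fasn and Acss2 spanned it. Scd1 and Elovl6 averaged under 50 counts, with ratios of 0.800 and 1.22 and intervals that spanned 1.

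No gene of 5 related lists passed 1.5-fold in either direction among the 61 with a mean of 50 counts or more. With backgrounds of 1.74% upward and 1.67% downward, a count of 0 lies near that of genes at large. The lists, and their 3 most abundant members, were other parts of the SREBP system (16 measured, led by Nfya, a subunit of NF-Y, Vcp and Ufd1, at 67.2, 65.7 and 52.0 TPM), the isoprenoid and dolichol branch (10 measured, led by Pggt1b, Rabggta and Rabggtb, subunits of protein prenyltransferases, at 30.4, 25.1 and 16.0 TPM) and other lipogenic genes (15 measured, led by Lpin2, Tecr and Dgat1, at 80.7, 29.8 and 27.3 TPM). Sterol storage, transport and efflux (13 measured) was led by Abca1, the cholesterol exporter, with 189.8 and 135.7 TPM, Soat1, which esterifies cholesterol, with 149.7 and 163 TPM, and Cyp27a1, a sterol hydroxylase, at 141 TPM. Median log2 ratios were 0.06, 0.02, 0.03 and -0.11 in these 4 lists and -0.16 in the macrophage markers. The median level of the storage and efflux list was 59.0 TPM, beside 5.57 TPM in the sterol arm. Mlxipl, a carbohydrate-sensing lipogenic factor, was listed at 0 in both gene tables, and had a mean of 3.08 TPM in the second transcript tables.

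**Figure D3:**
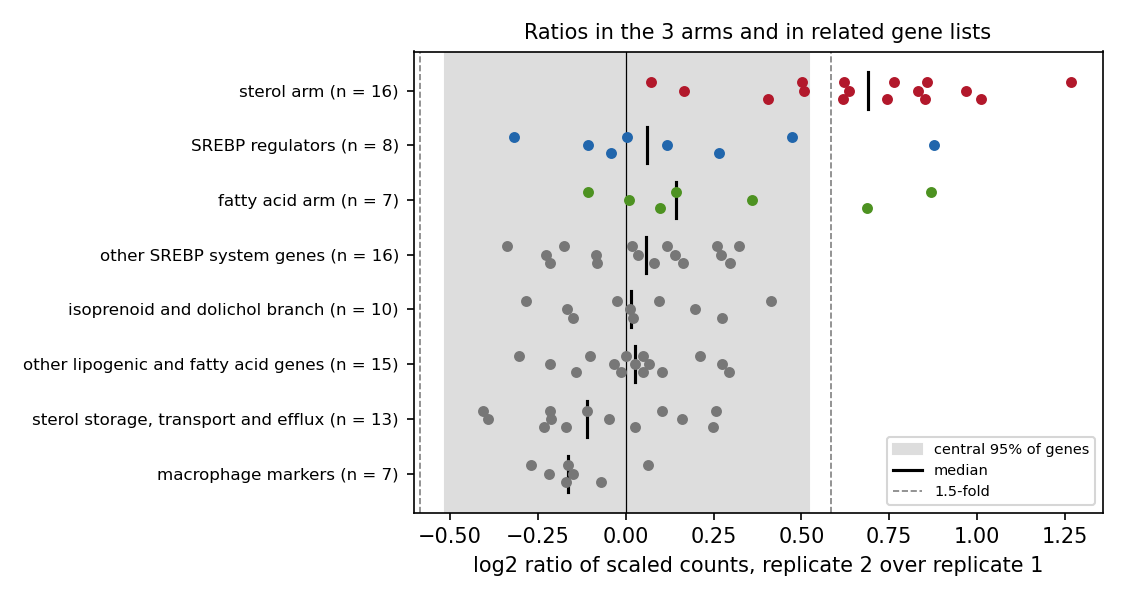
Log2 ratio of replicate 2 over replicate 1 for the genes with a mean of 50 counts or more in each of the 3 arms and 5 related lists, with the median as a black bar. The sterol arm median of 0.69 lies beyond the 1.5-fold line, while the 4 related pathway lists and the macrophage markers stay inside the grey band that holds the central 95% of all genes.

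The second transcript table, which the deposited notes list as derived from the reads and not from the alignment file behind the gene table, gave a median log2 ratio of 0.57 in the sterol arm, 0.07 in the regulators and 0.26 in the fatty acid arm. It put 9 of the 14 members past 1.5-fold in the gene table past that line as well, and no further member. The share of all genes past that line in the second table was not computed. Fads2, Msmo1, Mvd, Pmvk and Sqle dropped below the line, with log2 ratios of 0.51, 0.57, 0.57, 0.52 and 0.48 (1.5-fold is 0.58). Idi1 and Cyp51 did not reach 2-fold there, with log2 ratios of 0.90 and 0.91. Nsdhl (0.96) and Fdps (0.95) lay above both. Mean TPM was at least 2-fold apart between the tables for 3 of 31 members, against 11% of protein-coding genes. These were Stard4 (3.89-fold higher in the second table), Dhcr7 (3.06-fold) and Ggps1 (2.79-fold).

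Overlapping genes touch some of these values, because the labels do not say whether the libraries kept strand. Of the 36 genes 16 overlap no other annotated gene, and the 7 of these that are sterol genes with enough counts had a median log2 ratio of 0.74. Over such genes the median was 0.47 in the regulators (3 genes) and 0.39 in the fatty acid arm (2 genes), above the 0.06 and 0.14 of the whole arms. The Mvd locus lies whole inside Gm20388, which was assigned 0.87 counts in replicate 1 and 178 in replicate 2 while Mvd had 50 and 121, so the split between them is uncertain. Gm48342, antisense to Hmgcs1, went from 96.8 to 227 counts, a log2 ratio of 0.72 beside 0.62 for Hmgcs1. Fdft1 shares 774 bases with Ctsb, a lysosomal protease gene of 12412 and 15575 counts.

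Many reads of chromatin RNA fall on transcripts annotated as retaining an intron, and the share of a gene's TPM on such transcripts in the first transcript table is its retained-intron share. It was measured for the 17 members with such a transcript and at least 100 counts in each replicate, and it was 50% or more in 10 of them, against 48.2% of the 5091 genes measured. The members thus lay near genes at large in this measure. By arm the count was 4 of 7 in the sterol arm (median 55.5%), 4 of 6 in the regulators (54.1%) and 2 of 4 in the fatty acid arm (45.0%), beside a median of 49.1% for all genes. By share of expected counts in place of TPM the medians were 62.1%, 27.1% and 20.0%, so the levels of the last 2 depend on the unit.

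**Figure D4:**
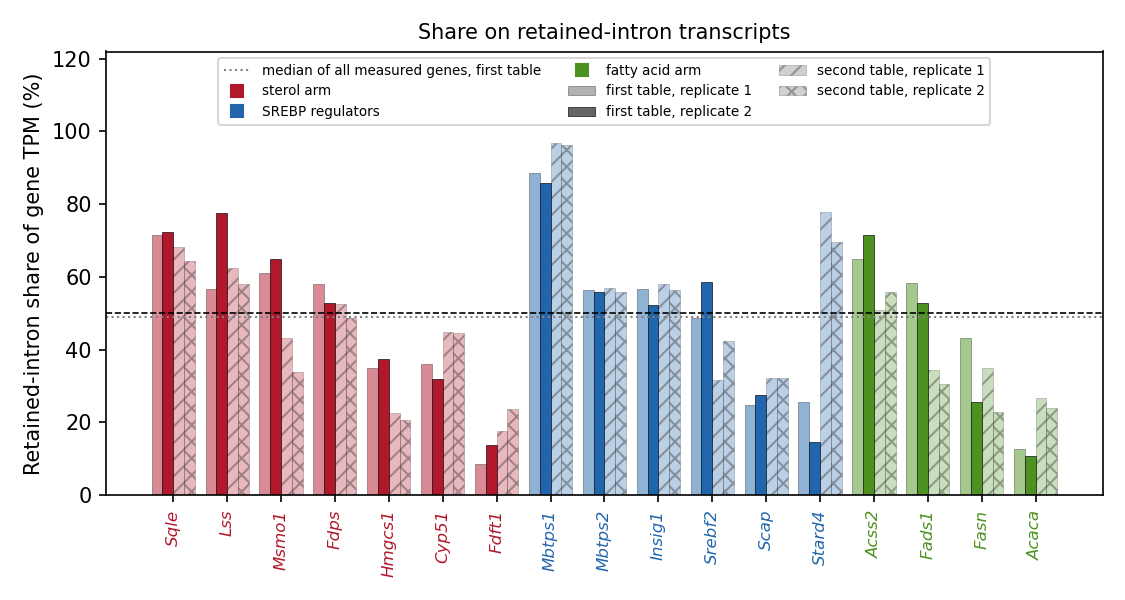
Share of each gene's TPM on retained-intron transcripts, in percent, for 17 genes and both replicates of the first (plain bars) and second (hatched bars) transcript tables, with the 50% line dashed. Mbtps1 is highest in both tables, and Stard4 is low in the first table and high in the second.

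Mbtps1 had the highest share of the 17, 88.6% and 85.8% in replicates 1 and 2 (87.2% ± 1.98, SD, n = 2), and 96.9% and 96.4% in the second table. Most of its gene level was thus assigned to transcripts not annotated as protein-coding. The coding share of TPM was also low in Srebf1, which has no retained-intron transcript (34.2% and 23.8%). By counts its coding transcripts held 474 of 580 and 475 of 659. Lss had 12.1 and 2 coding counts of 316 and 593. Sqle had 71.4% and 72.3%, Acss2 64.8% and 71.5%, Lss 56.8% and 77.6%, and Msmo1 61.2% and 64.8%. Mbtps2, Fads1, Fdps and Insig1 had means between 54.5% and 56.2%, and Srebf2 had 48.8% and 58.6%. The remaining 7 were Hmgcs1 (36.2%), Fasn (34.4%), Cyp51 (33.9%), Scap (26.1%), Stard4 (20.1%), Acaca (11.7%) and Fdft1 (11.1%). Of these Fasn was least even, with 43.2% and 25.6%. None of the 17 lay between Srebf2, at 53.7%, and Hmgcs1. The Stard4 share was 77.9% and 69.6% in the second table, so it depends on the table.

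Counts on coding and on retained-intron transcripts of the same gene could be compared where both averaged at least 20. In the sterol arm both classes were higher in replicate 2 in 6 of 6 genes, against 27.3% of the 4773 genes measured this way, with a median log2 ratio of 0.62 for coding and 0.67 for retained-intron transcripts. Fdps had 0.57 and 1.03, Msmo1 0.95 and 0.68, Sqle 0.87 and 0.70, and Hmgcs1 0.67 and 0.48. Tm7sf2 was uneven, at 0.18 and 0.67, and Mvk had 0.49 and 0.50. In the regulators the medians were 0.07 and 0.05 (5 genes), where Insig1 had 0.93 and 0.66. Srebf2 differed by class: its coding transcripts were level (553 and 793 counts, log2 ratio 0.02), while its retained-intron transcripts went from 219 to 522 counts (0.75). In the fatty acid arm the medians were 0.00 and 0.03 (4 genes), and Fasn had 0.14 for coding and -0.83 for retained-intron transcripts, the latter from 37.9 and 30.1 counts.

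**Figure D5:**
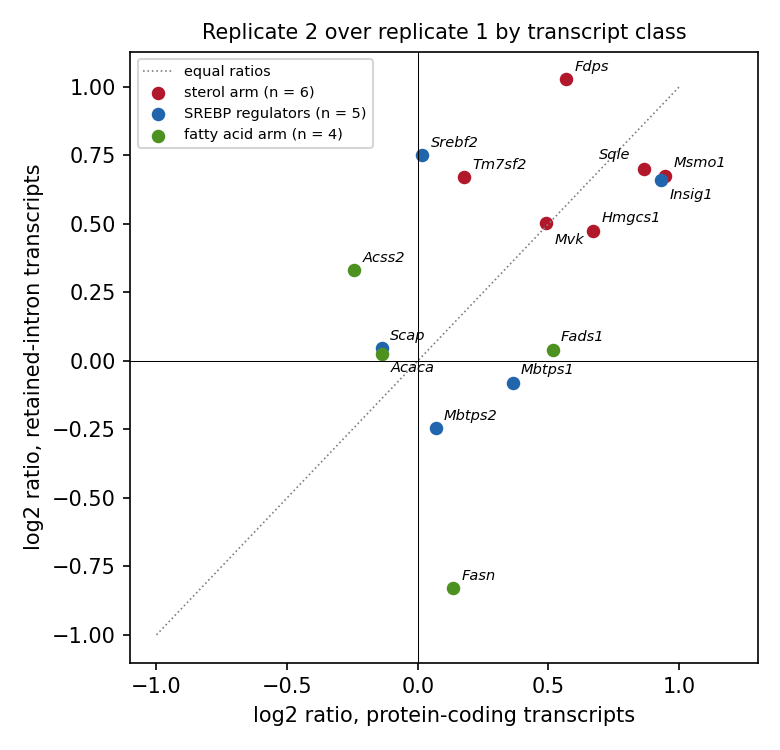
Log2 ratio of replicate 2 over replicate 1 on retained-intron transcripts (vertical) against protein-coding transcripts (horizontal) of the same gene, for 15 genes coloured by arm. The 6 sterol genes and Insig1 lie above 0 on both axes, as does Fads1, while Srebf2 lies high on the vertical axis at a coding ratio near 0 (0.02).

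Srebf1 has a pair of promoters, whose first exons give SREBP-1a and the shorter SREBP-1c. The coding parts of both first exons, read from the GENCODE M21 transcripts (mm10, minus strand of chromosome 11), are shown because the isoforms differ in them. They are chr11:60220453-60220543 for Srebf1-201, the upstream form with 91 coding bases in its first exon, and chr11:60210336-60210354 for Srebf1-207, with 19. The start codon is in capitals.
Srebf1-201: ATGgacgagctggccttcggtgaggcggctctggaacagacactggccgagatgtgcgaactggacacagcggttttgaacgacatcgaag
Srebf1-207: ATGgattgcacatttgaag
Srebf1-201, the transcript with the SREBP-1a exon, had 392 and 402 counts (9.33 and 6.39 TPM, 27.4% and 19.5% of the gene), and Srebf1-207, with the SREBP-1c exon, 37.0 and 37.6 counts (1.22 and 0.83 TPM). Srebf1-201 was thus 7.65-fold and 7.70-fold Srebf1-207 in replicates 1 and 2. In the second table it was 1.98-fold and 2.24-fold, so the order of the 2 transcripts held in both tables and its size did not. The transcripts also end at different positions, 60199089 for Srebf1-201 and 60200463 for Srebf1-207. Their ratio therefore does not rest on the first exons alone.

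Srebf2 also carries the microRNA gene Mir33 within its span on chromosome 15. The mature miR-33-5p, a repressor of cholesterol export genes such as Abca1, is shown with its seed, bases 2 to 8, in capitals (RefSeq, GRCm38.p6, chr15:82198127-82198147, plus strand).
mmu-miR-33-5p: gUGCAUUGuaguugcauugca
The Mir33 entry was listed at 0 counts in both gene tables, in libraries of fragments longer than the hairpin, while its host gene had 772 and 1315 counts.

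The 36 genes lie on 16 chromosomes. Chromosome 19 holds 5 (Tm7sf2, Fads2, Fads1, Scd2 and Scd1), with Scd2 and Scd1 87.6 kb apart, and chromosome 11 holds Srebf1, Acaca, Acly and Fasn. Fdps and Pmvk are 353 kb apart on chromosome 3. The ratios of these pairs were 1.61-fold and 1.28-fold for Fads2 and Fads1, and 1.81-fold and 1.55-fold for Fdps and Pmvk, each with intervals that overlapped. Scd2 stood at 1.82-fold, and the interval of Scd1, from 7.02 and 8.02 counts, ran from 0.256 to 2.61.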

How the data were processed

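The authors deposited 1 gene table and 2 transcript tables per library, on mm10 with GENCODE M21. The deposited expected counts are estimated reads, not whole numbers, and the deposited TPM values are expected counts per effective length, scaled within each table. The columns have the layouts of RSEM (gene table, first transcript table) and kallisto (second transcript table), and no source used here gives the tools or versions. The deposited notes derive the gene and first transcript tables from a transcriptome alignment and the second from the reads. Entries that name no annotated gene (26345, with 0.338% and 0.270% of counts) were left out of library sizes.

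Expected counts were rounded and scaled by TMM in edgeR 4.0.16, over 14576 genes kept by its low-count filter, with DESeq2 1.42.0 size factors as an alternative (R 4.3.3, Python 3.11.15). The common coefficient of variation between the replicates was 0.0976. Counting intervals are 95% exact binomial (Clopper-Pearson, scipy 1.17.1). They and the limit that a count of 0 allows (3 counts, or 0.274 and 0.212 RPM) cover counting error only. The steps were tested on simulated data.

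The members and all gene lists were chosen with earlier results of these data known. All members are named, and of other lists the 3 highest by mean TPM and those at 0 in both replicates. Markers of other cell types are given by counts and sums, apart from Zbtb46, the 1 detected, and those with a mean above 1 TPM in the second table. With 1 group there is no contrast, and no p-value was computed.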

Additional observations from a re-analysis of the deposited data

How the results depend on the processing

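Of 76 recomputed values 48 stayed within the spread between replicates, within the counting interval of an arm's summed counts, or, for counts of genes, within 1.5-fold. An arm median without 1 replicate is itself part of that spread, so its staying within it was nearly fixed in advance. No paired analysis was possible because the libraries form 1 group. TPM rescaled to nuclear protein-coding genes raised the medians of the sterol arm, regulators and fatty acid arm to 22.2, 80.4 and 45.5 TPM, in the same order, and the second transcript table put the sterol arm at 8.0 TPM. Over members that overlap no other gene, an alternative chosen after seeing the data, the regulators stood at 25 TPM (3 genes) and the fatty acid arm at 1.56 TPM (3 genes), below the sterol arm at 4.46 TPM (10 genes), so these 2 arms changed order. Leaving out a replicate gave 4.04 to 7.30, 18.6 to 20.9 and 8.26 to 13.3 TPM.

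Scaling to total counts, which puts the median of all genes at 0.14, moved the log2 ratio of the 3 arms to 0.82, 0.19 and 0.27, or 0.68, 0.05 and 0.13 above that median. In the second table it was 0.57 in the sterol arm and 0.26 in the fatty acid arm. It was 0.15 on coding transcripts of the regulators and 0.034 on retained-intron transcripts of the fatty acid arm. Over members with no overlap it was 0.47 in the regulators (3 genes) and 0.39 in the fatty acid arm (2 genes). The ratio needs both replicates, so none could be left out. The number of members 1.5-fold higher was 9 in the second table, 2 at a 2-fold limit and 8 of 21 with a mean of at least 200 counts. Shares over all genes were not computed at these settings, so these counts cannot be set against genes at large.

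The median retained-intron share of the 3 arms was 62.1%, 27.1% and 20.0% by expected counts, and 44.7%, 56.8% and 30.7% in the second table. Without a replicate it was 52.9% to 56.8%, 52.6% to 54.1% and 39.2% to 50.8%. The number of members at the limit was 5 at 60% and 2 of 4 with 500 counts in each replicate, and no share over all genes was computed at these settings. The causes of these differences were not tested. Depth limits the low members: at 27 to 58 counts the intervals of Acat2, Hsd17b7, Ebp and Elovl6 span 1.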
